A study of Saccharomyces cerevisiae with 13 samples.

Results

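The genes described here are 33 of the 5449 Saccharomyces cerevisiae genes measured on these arrays: those for sulfate assimilation, for the making and recycling of methionine, cysteine and S-adenosylmethionine, for the uptake of methionine and its derivatives, and for the control of the pathway. They were taken from a list of names, and each was read at its brightest probe set, which for all 33 was the only one. RNA levels were measured in 13 samples from micro-aerobic chemostats limited by glucose and fed with furfural, an aldehyde released from plant biomass that inhibits growth. FT30-3 (in full TMB3400-FT30-3) is a strain adapted by evolution to high furfural, and TMB3400 is its less resistant parent. For FT30-3 there were 3 arrays with 15 mM furfural in the feed, 2 with 25 mM and 3 with 36 mM. For TMB3400 there were 3 arrays with 25 mM and 2 with 15 mM. The parent was washed out of the vessel at 36 mM, a level that therefore has no strain comparison. No furfural-free culture was analysed here. The design text calls the replicates biological, and FT30-3 stands for evolved yeast as 1 strain.

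Yeast takes up sulfate through a pair of high-affinity permeases, activates it with ATP, and reduces it to sulfite and then sulfide at the expense of NADPH. Sulfide is joined to O-acetylhomoserine to give homocysteine, from which methionine, S-adenosylmethionine and, through transsulfuration, cysteine and glutathione are made. Transcription of the pathway is driven by the activator Met4 with its DNA-binding partners Cbf1, Met31 and Met32, and is held back by the ubiquitin ligase subunit Met30 when sulfur amino acids are plentiful.

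Levels are given as log2 intensity after each array was centred to a common median of 10.58, and differences as log2 values ± standard error. A gene was called where its adjusted p in limma, over all S. cerevisiae probe sets, was under 0.05. Intensity depends on the probe set, so levels are compared between samples of 1 gene and never between genes. All 33 genes lay above background on every array: the lowest single reading was 7.27, for SUL1, against a 95th percentile of 4.91 to 5.44 for probe sets of another yeast. Within groups the median SD of the 33 genes was 0.17, against 0.16 for all genes, and it was highest for SUL1 (0.62) and MET32 (0.43). Genes of chromosome XVI, taken as a check of the strain labels, read 0.44 to 0.56 above those of other chromosomes in the 8 FT30-3 arrays, and -0.02 to 0.04 relative to them in the 5 TMB3400 arrays. Earlier results of these same data gave this check, so it shows only that arrays with the same strain label are alike.

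Some arrays stood apart from the others of their group. FT30-3 at 15 mM replicate 1 was the lowest of 3 for 28 of the 33 genes (40.1% of all genes were lowest there), and TMB3400 at 25 mM replicate 3 for 26 of 33 (31.6% of all genes). FT30-3 at 36 mM replicate 1 was at an extreme of its group as often for the 33 genes (highest for 18, lowest for 13) as for all genes (51.3% highest, 40.3% lowest), but an estimate of array quality gave it the smallest weight of the 13 arrays (0.114). Counts of called genes are therefore also given without these arrays.

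**Figure D1:**
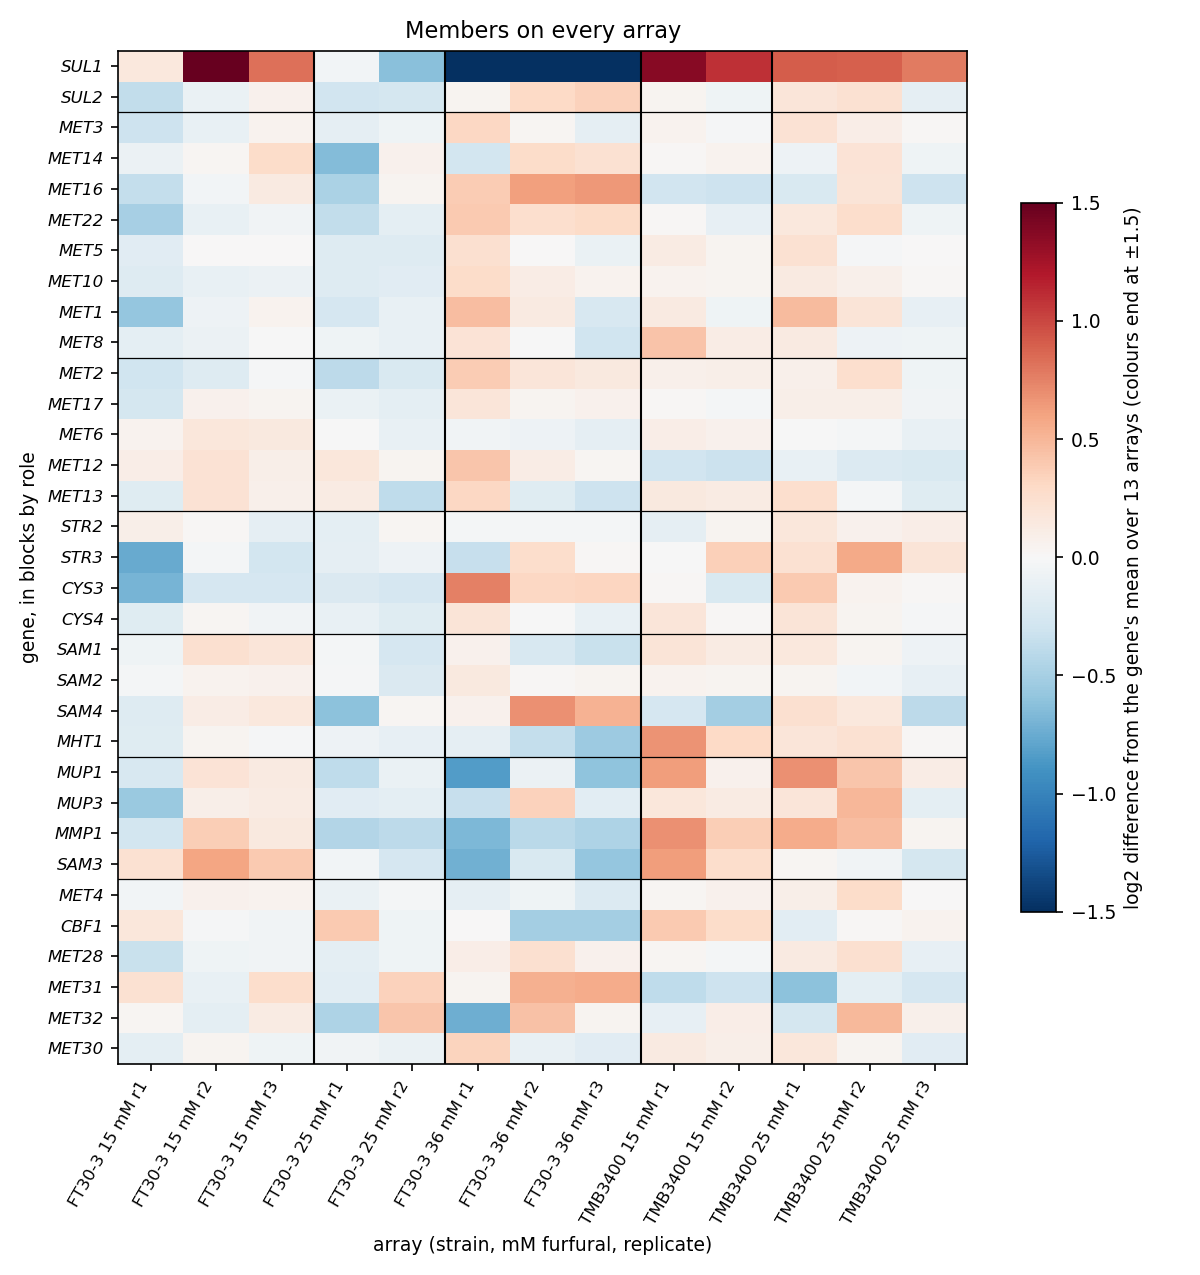
Log2 difference of each of the 33 genes (rows, in blocks by role) from its own mean over 13 arrays, for every array (columns, by strain, furfural level and replicate); red is above and blue below the mean, and colours end at ±1.5. The SUL1 row is darkest blue at 36 mM in FT30-3, where its 3 arrays lie at -3.43 to -1.73.

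At 36 against 15 mM in FT30-3, 8 of the 33 genes were called, 5 higher and 3 lower. The sulfate permease gene SUL1 had the largest change of the 33 and fell, as did 2 permease genes for methionine derivatives, SAM3 and MMP1. The genes that rose were MET16, MET22 and MET10 of sulfate reduction, MET2 of homocysteine synthesis and CYS3 of transsulfuration. Of all 5449 genes, 11% were called higher and 11.2% lower in this comparison, so that 24.2% of the 33 genes stood beside 22.3% of all genes: the number called was near the background. The median change was 0.07 over the 33 genes and -0.03 over all genes.

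Of the 2 sulfate permease genes, SUL1 fell and SUL2 was not called. SUL1 (YBR294W, chromosome II) read 10.86, 12.24 and 11.53 at 15 mM, 10.66 and 10.08 at 25 mM, and 7.27, 8.97 and 8.96 at 36 mM in FT30-3. All 3 arrays at 36 mM lay below all others, and the groups at 15 and 25 mM did not overlap either. TMB3400 read 11.61, 11.60 and 11.49 at 25 mM, against 12.07 and 11.80 at 15 mM, all within the span of FT30-3 at 15 mM. As deposited, the intensity in FT30-3 averaged 2990 ± 1384 at 15 mM, 1410 ± 403 at 25 mM (n = 2) and 409 ± 210 at 36 mM (SD, n = 3 for the others). SUL1 fell by 3.14 ± 0.44 on the log2 scale at 36 against 15 mM, 8.83-fold (95% interval -4.10 to -2.18, adjusted p = 0.000669). Its lowest array was replicate 1 of the 36 mM level, and with that array left out the change was -2.58 (adjusted p = 0.000557). At 25 against 15 mM the change of -1.17 ± 0.49 in FT30-3 was not called (adjusted p = 0.373), nor was that of -0.37 ± 0.49 in TMB3400 (adjusted p = 0.942).

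SUL2 (YLR092W, chromosome XII), the other high-affinity sulfate permease, read 12.04, 12.30 and 12.47 at 15 mM, 12.11 and 12.14 at 25 mM, and 12.44, 12.69 and 12.75 at 36 mM in FT30-3. The groups at 36 and 15 mM overlapped, with 2 of the 3 arrays at 36 mM above all others of the strain. Its differences of 0.36 ± 0.13 at 36 against 15 mM (adjusted p = 0.0742) and 0.50 ± 0.15 at 36 against 25 mM (adjusted p = 0.0695) did not pass. SUL2 in TMB3400 read 12.58, 12.63 and 12.27 at 25 mM, against 12.44 and 12.33 at 15 mM.

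The 8 genes of sulfate activation and reduction all read above 0 at 36 against 15 mM, by 0.01 (MET14) to 0.64 (MET16), with a median of 0.24. Of these, 3 were called. Of all genes, 53.6% read below 0 in this comparison. The 8 genes share arrays, and FT30-3 at 15 mM replicate 1 was the lowest of its group for 28 of the 33 genes. Their shared direction therefore describes these arrays and is not 8 separate results. MET16 (YPR167C, chromosome XVI) encodes the reductase that turns activated sulfate (PAPS) into sulfite. It read 10.90, 11.22 and 11.39 at 15 mM, 10.79 and 11.30 at 25 mM, and 11.64, 11.88 and 11.91 at 36 mM in FT30-3. The 3 arrays at 36 mM lay above every other array of either strain, since the highest TMB3400 reading was 11.46. MET16 rose by 0.64 ± 0.18 (adjusted p = 0.0244). MET22 (YOL064C, chromosome XV), the phosphatase that clears the by-product of PAPS reduction, read 10.76, 11.15 and 11.21 at 15 mM, 10.89 and 11.12 at 25 mM, and 11.66, 11.51 and 11.56 at 36 mM in FT30-3. Its 36 mM arrays were separate from both lower levels, and it rose by 0.53 ± 0.13 (adjusted p = 0.0148). In TMB3400 MET22 read 11.42, 11.53 and 11.20 at 25 mM, against 11.28 and 11.14 at 15 mM, a span that reaches into that of FT30-3 at 36 mM.

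MET10 (YFR030W, chromosome VI), a subunit of sulfite reductase, read 12.35, 12.43 and 12.46 at 15 mM, 12.35 and 12.37 at 25 mM, and 12.82, 12.66 and 12.60 at 36 mM in FT30-3. The 36 mM arrays lay above the 5 others of the strain, and MET10 rose by 0.28 ± 0.08 (adjusted p = 0.0283). It read 12.68, 12.62 and 12.57 in TMB3400 at 25 mM, against 12.60 and 12.59 at 15 mM, a span that meets that of FT30-3 at 36 mM. MET5, the other sulfite reductase subunit, differed by 0.10 ± 0.11 (adjusted p = 0.497). The differences of MET3, the ATP sulfurylase, and MET14, the kinase that completes PAPS, were 0.19 ± 0.13 and 0.01 ± 0.20, and those of MET1 and MET8, which make the siroheme cofactor of sulfite reductase, were 0.33 ± 0.21 and 0.04 ± 0.13. None of these 5 passed, and their groups at 36 and 15 mM overlapped. The 8 genes read above 0 also without centring, with centring on genes off chromosome XVI and after quantile normalization. The median of all genes was 0.17 before centring and -0.03 after it, so without centring these genes could only read higher. It was -0.025 on chromosome XVI and -0.030 elsewhere, so centring off that chromosome could move them little. With single arrays left out, 7 or 8 of the genes read above 0.

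Of the 5 genes that make homocysteine and methionine, MET2 was called. MET2 (YNL277W, chromosome XIV), the acetyltransferase that makes O-acetylhomoserine, read 11.71, 11.82 and 11.99 at 15 mM, 11.63 and 11.79 at 25 mM, and 12.40, 12.20 and 12.15 at 36 mM in FT30-3. The 36 mM arrays stood clear of the other 5, and MET2 rose by 0.41 ± 0.11 (adjusted p = 0.0228). MET2 in TMB3400 read 12.09, 12.27 and 11.95 at 25 mM, against 12.09 and 12.10 at 15 mM. MET17, which joins sulfide to O-acetylhomoserine, differed by 0.15 ± 0.10. MET6, the methionine synthase and the gene with the smallest spread within groups (SD 0.054), differed by -0.21 ± 0.07 with groups that did not overlap, and missed the threshold (adjusted p = 0.0564). MET12 and MET13, isozymes of the folate reductase that supplies the methyl group, differed by 0.05 ± 0.10 and -0.10 ± 0.19.

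CYS3 was the called gene of transsulfuration, the exchange of sulfur between homocysteine and cysteine. CYS3 (YAL012W, chromosome I), the cystathionine gamma-lyase that releases cysteine, read 11.64, 12.07 and 12.08 at 15 mM, 12.12 and 12.08 at 25 mM, and 13.09, 12.64 and 12.65 at 36 mM in FT30-3. The 36 mM arrays lay above the other 5, with replicate 1 highest. CYS3 rose by 0.86 ± 0.16, 1.82-fold (adjusted p = 0.00385). Its readings in TMB3400 were 12.72, 12.38 and 12.35 at 25 mM, against 12.35 and 12.10 at 15 mM. CYS4, the preceding enzyme in the route to cysteine, differed by 0.09 ± 0.10, and STR2 and STR3, the enzymes of the reverse route, by -0.02 ± 0.09 and 0.33 ± 0.20. None of these 3 passed, and the groups of all 3 overlapped.

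**Figure D2:**
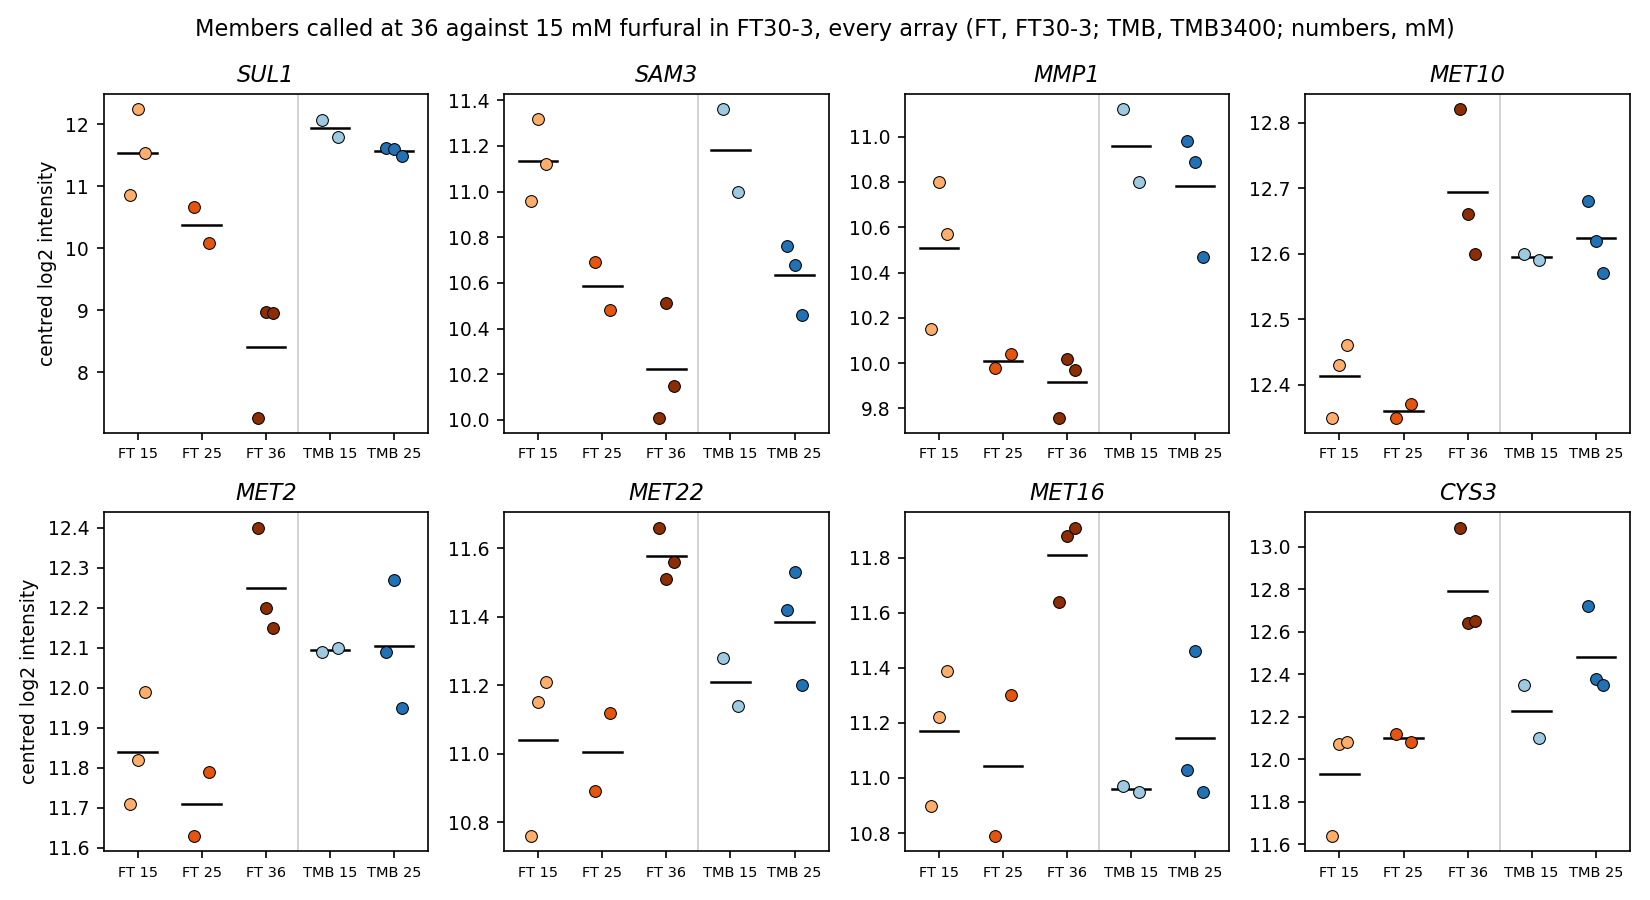
Centred log2 intensity (vertical axis, its own range in each panel) of the 8 genes called at 36 against 15 mM, with 1 point per array and a bar at the mean of each group; the horizontal axis gives strain and furfural level in mM. In FT30-3 the 3 arrays at 36 mM are apart from the 3 at 15 mM in every panel, and SUL1 spans 7.27 to 12.24 over the strain. The panels were picked by a test on these same arrays, so the separation is no further support.

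Among the 4 permease genes for methionine and its derivatives, 2 fell at 36 against 15 mM. SAM3 (YPL274W, chromosome XVI), the S-adenosylmethionine permease, read 10.96, 11.32 and 11.12 at 15 mM, 10.69 and 10.48 at 25 mM, and 10.01, 10.51 and 10.15 at 36 mM in FT30-3. The group at 15 mM was above both others, which overlapped each other. SAM3 fell by 0.92 ± 0.15 on the log2 scale, 1.89-fold (adjusted p = 0.00204). MMP1 (YLL061W, chromosome XII), the S-methylmethionine permease, read 10.15, 10.80 and 10.57 at 15 mM, 9.98 and 10.04 at 25 mM, and 9.76, 10.02 and 9.97 at 36 mM. Here too the 15 mM group was the separate one, and MMP1 fell by 0.59 ± 0.18 (adjusted p = 0.0345). MUP1, the high-affinity methionine permease, read 10.79, 11.24 and 11.16 at 15 mM, 10.65 and 10.93 at 25 mM, and 10.20, 10.94 and 10.43 at 36 mM. Its groups overlapped and its difference of -0.54 ± 0.23 did not pass (adjusted p = 0.102). MUP3, a low-affinity methionine permease, differed by 0.07 ± 0.22.

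None of the 4 genes that make and use S-adenosylmethionine was called at 36 against 15 mM. The synthetase genes SAM1 and SAM2, whose near-identical sequences may share signal on the array, differed by -0.29 ± 0.13 (adjusted p = 0.117) and 0.04 ± 0.08 (adjusted p = 0.779). SAM4 and MHT1, methyltransferases that recycle homocysteine to methionine, differed by 0.40 ± 0.22 (adjusted p = 0.215) and -0.29 ± 0.13 (adjusted p = 0.117). SAM4 read 10.38, 10.69 and 10.73 at 15 mM, 9.96 and 10.60 at 25 mM, and 10.64, 11.26 and 11.09 at 36 mM in FT30-3, so its groups at 36 and 25 mM were apart.

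None of the 6 regulators was called either, in this or in any other comparison. MET4, the activator itself, read 10.98, 11.08 and 11.06 at 15 mM, 10.91 and 10.99 at 25 mM, and 10.88, 10.95 and 10.81 at 36 mM in FT30-3. The groups at 36 and 15 mM did not overlap, and the difference was -0.16 ± 0.09 (adjusted p = 0.191). CBF1 and MET28, which assemble with Met4 on DNA, differed by -0.37 ± 0.16 (adjusted p = 0.109) and 0.28 ± 0.11 (adjusted p = 0.0897). MET31 and MET32, the zinc-finger partners, differed by 0.24 ± 0.18 and -0.09 ± 0.30, and MET30 by 0.07 ± 0.13. MET32 ranged from 10.13 to 11.31 among the 3 arrays at 36 mM, and the interval of its difference was wide, from -0.75 to 0.58. The direction of the 6 regulators depended on scaling: 3 read above 0 after centring and 5 without it.

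SUL1, CYS3 and SAM3 were called in all 22 alternative settings, MET22 in 21, MET16 and MET2 in 18, MET10 in 17 and MMP1 in 15. Settings that leave out an array of another group change only the estimate of spread, not the difference. The count of 8 became 4 (1 higher, 3 lower) when replicate 1 of the 15 mM level was left out, and 4 (2 higher, 2 lower) when replicate 2 of that level was. Leaving out replicate 1 of the 36 mM level gave 11 (5 higher, 6 lower). Before centring the median difference of all genes was 0.17 at 36 against 15 mM. Without centring the calls were 9 higher and 2 lower, and after quantile normalization 8 higher and 3 lower.

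**Figure D3:**
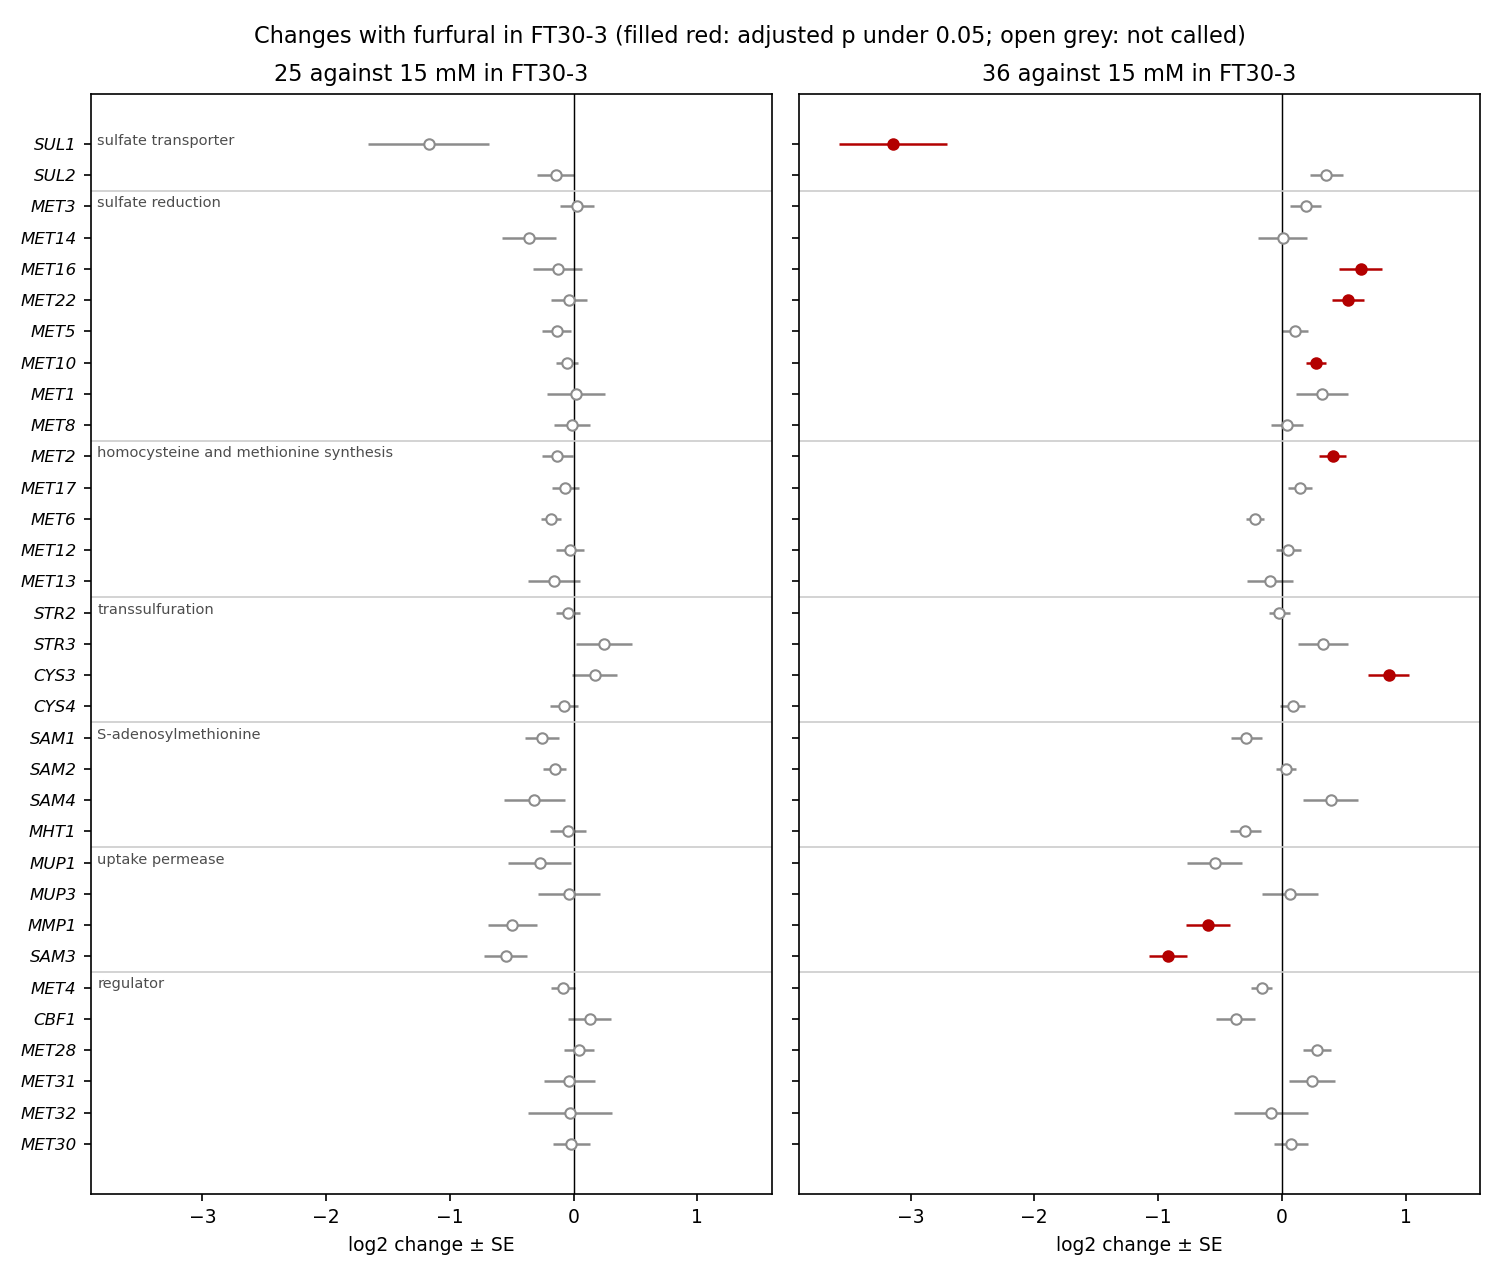
Log2 change ± standard error (horizontal axis) of each of the 33 genes (vertical axis, in blocks by role) in FT30-3 at 25 against 15 mM (left) and at 36 against 15 mM (right); filled red points were called. The left panel holds 0 called genes and the right panel 8, and all 8 sulfate reduction genes lie above 0 on the right.

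At 36 against 25 mM in FT30-3, 6 of the 33 genes were called, 5 higher and 1 lower (18.2%), against 3.4% of all genes called higher and 3.73% lower (7.12% together). This comparison shares its 36 mM arrays with the one above. The genes that rose were MET16 by 0.77 ± 0.20 (adjusted p = 0.0406), CYS3 by 0.69 ± 0.18 (adjusted p = 0.0446), MET22 by 0.57 ± 0.15 (adjusted p = 0.0415), MET2 by 0.54 ± 0.12 (adjusted p = 0.0263) and MET10 by 0.33 ± 0.09 (adjusted p = 0.0478). SUL1 fell by 1.97 ± 0.49, 3.92-fold (adjusted p = 0.036), and the arrays of the 2 levels did not overlap for any of these 6 genes. These genes were picked by a test on the same arrays, so the separation is no further support. Among all 33 genes, the 36 mM arrays lay wholly above those at 25 mM for 11 and wholly below for 2. How many of all genes were separate in this way was not counted, so these counts have no background beside them. MMP1 and SAM3 differed by -0.10 ± 0.20 and -0.37 ± 0.17, with overlapping arrays, and were not called. All 8 sulfate reduction genes read above 0 here too, with a median of 0.32, where 48.5% of all genes read below 0. Only 2 arrays hold the 25 mM level, and these calls were close to the threshold: the count was 0 with replicate 1 of the 25 mM level left out and 1 with replicate 2 left out. It was 4 or 5 when replicate 1 of FT30-3 at 36 or 15 mM or replicate 2 of TMB3400 at 25 mM was left out, and 1 to 3 for each of the other 8 arrays, of both strains. All 13 arrays enter 1 estimate of the spread. MET2 was called in 17 of the 22 alternatives, SUL1 in 15, MET16 in 14, MET22 in 10, CYS3 in 8 and MET10 in 6.

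Between 15 and 25 mM none of the 33 genes was called in either strain. In FT30-3, 1.23% of all genes were called higher and 0.918% lower, and 4 of the 33 genes had an unadjusted p under 0.05: SUL1 (-1.17 ± 0.49), MET6 (-0.19 ± 0.08), MMP1 (-0.50 ± 0.20) and SAM3 (-0.55 ± 0.17). In TMB3400, 0.807% of all genes were called higher and 0.826% lower, and 2 of the 33 had an unadjusted p under 0.05: SAM3 (-0.54 ± 0.17) and MHT1 (-0.34 ± 0.14). The share of all genes with an unadjusted p under 0.05 was not counted in either strain. SAM3 averaged 10.63 ± 0.15 at 25 mM (n = 3) and 11.18 ± 0.25 at 15 mM (n = 2) in TMB3400 (SD). Its arrays at 25 mM lay below those at 15 mM in both strains, yet the adjusted p was 0.191 in FT30-3 and 0.234 in TMB3400. The strain by dose interaction, which asks whether the change from 15 to 25 mM differed between strains, called 0 of the 33 genes, and 0 had an unadjusted p under 0.05. Of all genes it called 0.422% higher and 0.257% lower. The interaction of SUL1 was -0.80 ± 0.69, with an interval of -2.32 to 0.71, which includes 0 and also changes in either direction.

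Each gene was also sorted by the order of its means over the 3 levels in FT30-3. The same count was not made for all genes, and only 2 arrays hold the 25 mM level. For 18 genes the mean was lowest at 25 mM, for 9 it was lower at each higher level, for 5 it was higher at each higher level, and for CBF1 it was highest at 25 mM. Those falling throughout were SUL1, MET6, SAM1, MHT1, MUP1, MMP1, SAM3, MET4 and MET32, and those rising throughout were MET3, MET1, STR3, CYS3 and MET28. As to neighbouring levels, none of the 33 steps between 15 and 25 mM passed the test, and 6 of those between 25 and 36 mM did.

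The strain difference was small for most of the genes and lay below 0 for most of them. At 15 mM FT30-3 differed from TMB3400 in 0 of the 33 genes, where 1.95% of all genes were called higher and 0.257% lower, and 6 of the 33 had an unadjusted p under 0.05. At 25 mM 1 gene was called, the permease gene MMP1, which was lower in FT30-3, against 4.22% of all genes higher and 2.39% lower. At that level 8 of the 33 had an unadjusted p under 0.05. These shares of all genes are for calls by adjusted p, and no such share was counted for unadjusted p. Averaged over both levels 5 were called, 1 higher and 4 lower, against 6.79% of all genes higher and 4.4% lower. The higher one was MET12 and the lower ones were MMP1, MHT1, MET2 and MET10.

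MMP1 read 9.98 and 10.04 in FT30-3 at 25 mM, against 10.98, 10.89 and 10.47 in TMB3400, and 10.15, 10.80 and 10.57 in FT30-3 at 15 mM, against 11.12 and 10.80 in TMB3400. FT30-3 was lower at both levels, and the groups at 15 mM all but met at 10.80. The difference was -0.77 ± 0.20 at 25 mM (adjusted p = 0.0419) and -0.61 ± 0.14 averaged (adjusted p = 0.017). MHT1 (YLL062C), which uses S-methylmethionine and whose systematic name places it beside MMP1 on chromosome XII, read 8.58 and 8.53 in FT30-3 at 25 mM, against 8.84, 8.88 and 8.67 in TMB3400, and 8.47, 8.69 and 8.64 in FT30-3 at 15 mM, against 9.33 and 8.95 in TMB3400. It was lower in FT30-3 at both levels without overlap, and by 0.39 ± 0.10 averaged (log2 -0.39, adjusted p = 0.0306). MET2 was lower by an average of 0.32 ± 0.09 (log2 -0.32, adjusted p = 0.0366) and MET10 by 0.22 ± 0.06 (log2 -0.22, adjusted p = 0.0453). Both of these are also genes that rose at 36 mM in FT30-3. The strain and dose comparisons share the FT30-3 arrays at 15 and 25 mM. At 25 mM SUL1 differed by -1.19 ± 0.49 (adjusted p = 0.204) and at 15 mM by -0.39 ± 0.49 (adjusted p = 0.82).

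MET12 is 1 of 5 members on chromosome XVI (with MET16, MET31, SAM3 and SAM4), whose genes as a whole read higher in FT30-3: the median strain difference of its 424 genes was 0.43 at 15 mM and 0.41 at 25 mM, against -0.04 and -0.06 for genes elsewhere. MET12 read 11.42, 11.54 and 11.41 in FT30-3 at 15 mM, against a mean of 11.02 ± 0.02 in TMB3400 (SD, n = 2), and 11.49 and 11.37 in FT30-3 at 25 mM, against 11.21, 11.12 and 11.09 in TMB3400. FT30-3 was higher at both levels without overlap, by 0.36 ± 0.08 averaged (adjusted p = 0.015), close to the chromosome's median of 0.43. MET31 also lay near it, at 0.47 ± 0.21 and 0.43 ± 0.21 at the levels of 15 and 25 mM, though it was not called. SAM4 differed by 0.40 ± 0.25 at 15 mM and -0.30 ± 0.25 at 25 mM, and MET16 by 0.21 ± 0.20 and -0.10 ± 0.20. SAM3, beside SAM4 on the chromosome by its systematic name, differed by -0.04 ± 0.17 and -0.05 ± 0.17, and at 15 mM 2.12% of the chromosome's genes had a lower value. Whether these 3 genes depart from their chromosome was not tested.

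**Figure D4:**
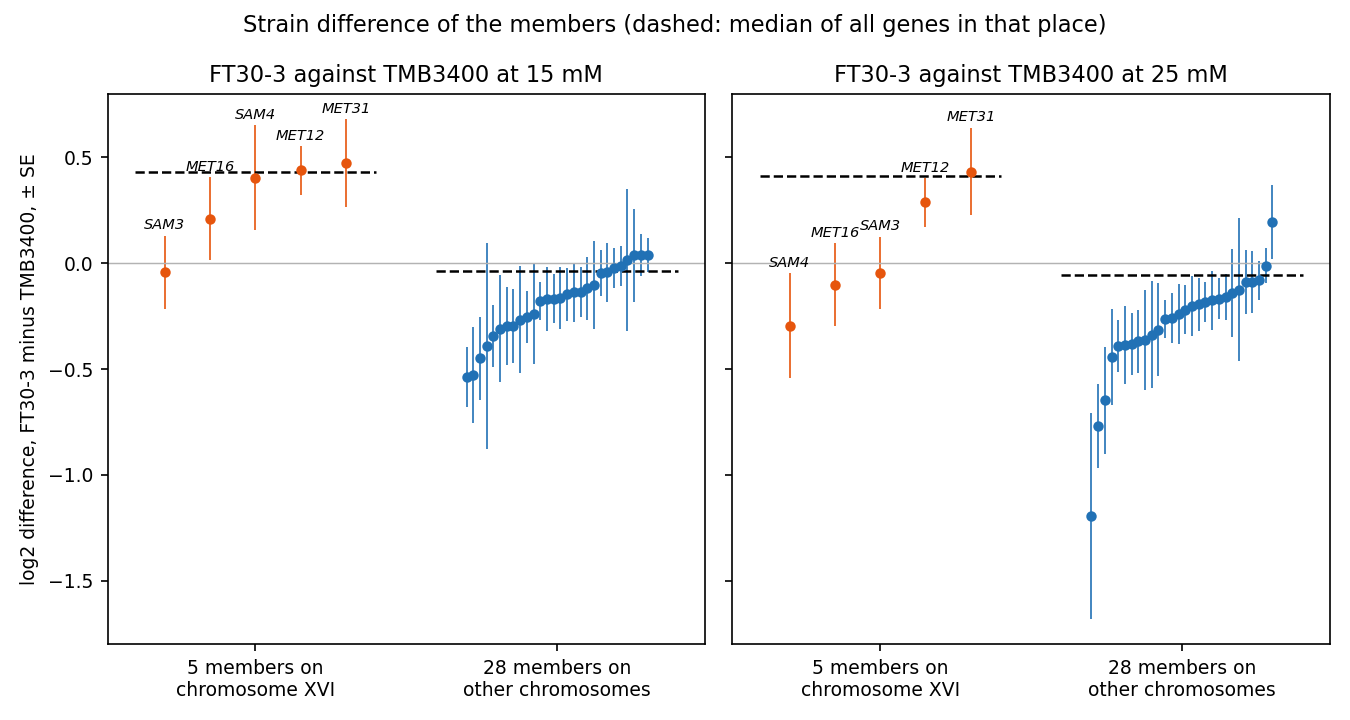
Log2 difference, FT30-3 minus TMB3400, ± standard error (vertical axis) of the 33 genes at 15 mM (left) and 25 mM (right), split into the 5 on chromosome XVI (orange, named) and the 28 on other chromosomes (blue, in order of value); dashed lines are the medians of all genes in the same place. Of the 28 genes off chromosome XVI, 24 lie below 0 at 15 mM and 27 at 25 mM.

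Of the 28 genes on other chromosomes, 24 read below 0 at 15 mM (median -0.17), 27 at 25 mM (median -0.23) and 27 averaged (median -0.20). Above 0 were MET14, MET6, STR2 and MET32 at 15 mM and CBF1 at 25 mM. Among all genes off chromosome XVI, 41.2%, 38.6% and 40.0% read above 0 in these comparisons. The counts below 0 were 20, 26 and 27 with centring on genes off chromosome XVI, 24, 26 and 27 without centring, and 24, 25 and 26 after quantile normalization. These genes share arrays. FT30-3 at 15 mM replicate 1 was the lowest of its group for 28 of the 33 (40.1% of all genes). TMB3400 at 15 mM replicate 1 was the higher of its group for 26 (52.0% of all genes). The counts therefore describe these arrays. Leaving out 1 array at a time, between 20 and 26 of the 28 read below 0 at 15 mM. The count of 5 called in the averaged comparison became 2 when replicate 1 of FT30-3 at 15 mM was left out. It was 0 with replicate 1 of TMB3400 at 15 mM left out, and 8 with replicate 1 of FT30-3 at 36 mM left out. It was 4 with replicate 3 of TMB3400 at 25 mM left out, 5 with replicate 3 of FT30-3 at 36 mM left out, and 1 to 3 for each of the other arrays. MMP1 at 25 mM was called in 9 of the 22 alternatives, and in the averaged comparison MMP1 was called in 20, MET12 in 19, MHT1 in 14, MET2 in 10 and MET10 in 7.

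Other genes of sulfur metabolism were read from 6 lists, of which 32 of 33 genes had a probe set, and 10 of the 32 were called at 36 against 15 mM in FT30-3, 7 higher and 3 lower. With 11% of all genes called higher and 11.2% lower in this comparison, the number lower was near the background, and counts over lists of 3 to 7 genes are descriptions. Of 7 genes for alternative sulfur sources and sulfur limitation, 2 were higher and 2 lower. JLP1 (YLL057C), a dioxygenase that frees sulfite from sulfonates, read 8.34, 8.41 and 8.15 at 15 mM, 9.28 and 9.13 at 25 mM, and 9.27, 9.86 and 10.25 at 36 mM. Its 15 mM arrays were separate from all others of the strain, and it rose by 1.49 ± 0.21 (adjusted p = 0.000705). PDC6, a minor pyruvate decarboxylase with a protein poor in sulfur amino acids, rose by 1.78 ± 0.48 (adjusted p = 0.023), with arrays spread from 9.82 to 11.79 at 36 mM, against 8.77 to 9.46 at 15 mM. YCT1 (YLL055W), a cysteine transporter, read 12.59, 12.65 and 12.48 at 15 mM, 12.38 and 12.56 at 25 mM, and 10.60, 11.82 and 11.57 at 36 mM. All 36 mM arrays were below the others, and YCT1 fell by 1.24 ± 0.24 (adjusted p = 0.00453), as did SEO1, a putative permease, by 0.88 ± 0.29 (adjusted p = 0.0478). BDS1 and AGP3 of the same list were below background on every array.

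Of 6 glutathione genes 3 rose and 0 fell. GSH2, the glutathione synthetase, averaged 11.37 at 36 mM and 10.67 at 15 mM and rose by 0.70 ± 0.13 (adjusted p = 0.00296). DUG2 and DUG3, subunits of a glutathione-degrading enzyme, rose by 0.60 ± 0.14 (adjusted p = 0.0097) and 0.63 ± 0.13 (adjusted p = 0.00647). Of 6 methionine salvage genes, MRI1, an isomerase of the cycle that lies on chromosome XVI, rose to a mean of 11.51 at 36 mM, against 10.51 at 15 mM (log2 difference with interval 0.78 to 1.22, adjusted p = 9.82e-05), and ADI1, a dioxygenase of the same cycle, fell by 0.51 ± 0.14 (adjusted p = 0.0271). TRR1, the thioredoxin reductase that keeps the PAPS reductase's electron donor reduced, rose by 0.41 ± 0.09 (adjusted p = 0.00909), the 1 called of 3 thioredoxin genes. None of the 6 genes for homoserine, folate and homocysteine supply and none of the 4 ligase partners of Met30 was called. JLP1, YCT1, GSH2, DUG3, MRI1 and TRR1 were called in all 22 alternatives, DUG2 in 21, PDC6 in 18, ADI1 in 16 and SEO1 in 12. PDC6 was lost when replicate 2 or 3 of either level was left out. ADI1 was lost without centring, after quantile normalization, with only the groups compared, and when replicate 1 of the 36 mM level or replicate 1 or 2 of the 15 mM level was left out.

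At 36 against 25 mM, 2 of these 32 genes were called, beside 7.12% of all genes: MRI1 rose by 0.77 ± 0.11 (adjusted p = 0.00256) and YCT1 fell by 1.14 ± 0.27 (adjusted p = 0.0305). YCT1 was called here in 19 of 22 alternatives and was lost with only the groups compared and when either array at 25 mM was left out. MRI1 was called here in 21 and was lost with only the groups compared. Between 15 and 25 mM 0 were called in either strain. Between the strains MRI1 was higher in FT30-3 at 15 mM (0.66 ± 0.11), 25 mM (0.55 ± 0.11) and averaged (0.61 ± 0.08), where the genes of its chromosome had medians of 0.43, 0.41 and 0.43. Its call held in 18 of 22 alternatives at 15 mM, 19 at 25 mM and 22 averaged, and whether it departs from its chromosome was not tested. At 15 mM it was lost when either TMB3400 array or replicate 2 or 3 of FT30-3 was left out. At 25 mM it was lost with only the groups compared and when replicate 2 of FT30-3 or replicate 3 of TMB3400 was left out. HOM3, the aspartate kinase at the head of homoserine synthesis, was lower in FT30-3 at 25 mM (-0.89 ± 0.21, adjusted p = 0.032) and averaged (-0.73 ± 0.15, adjusted p = 0.00969). It read 10.94 and 11.13 in FT30-3 at 25 mM, against 12.19, 11.77 and 11.82 in TMB3400, with no overlap. The call at 25 mM held in 16 of 22 alternatives and was lost with the replicate block and when any 1 of the 5 arrays at 25 mM was left out (adjusted p up to 0.212). The averaged call was lost when replicate 1 of TMB3400 at 15 mM was left out (highest adjusted p = 0.0505).

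**Figure D5:**
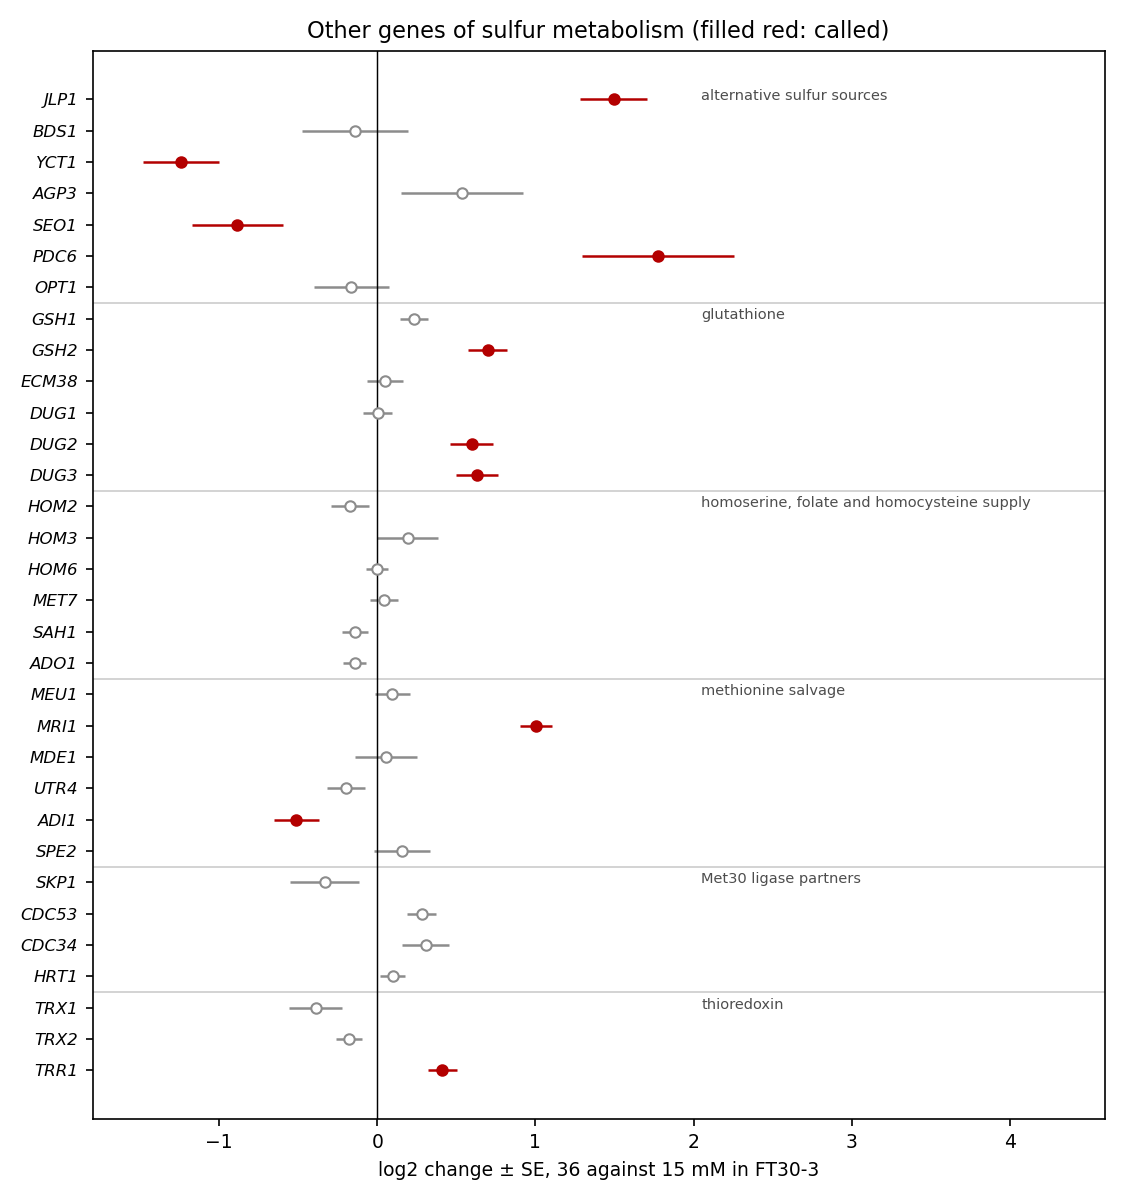
Log2 change ± standard error (horizontal axis) at 36 against 15 mM in FT30-3 of 32 other genes of sulfur metabolism (vertical axis, in blocks by list); filled red points were called. The 7 called above 0 reach 1.78 for PDC6 and the 3 below 0 reach -1.24 for YCT1.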

How the data were processed

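The authors deposited 1 linear intensity per probe set and array for 13 biotin-labelled 1-colour Affymetrix arrays. The submitters' processing notes name R 2.7.2; for background correction, summary and normalization, nothing was stated (not given in the sources used here). The number of arrays limits the precision. Of 10928 probe sets, 5498 had 1 S. cerevisiae gene in the platform annotation, and 1746 of Schizosaccharomyces pombe served as background (95th percentile per array). Each array's log2(intensity + 1), a scale on which changes of dim genes look smaller, was centred to a common median over the 5498 probe sets. With limma 3.58.1 (lmFit and eBayes, R 4.3.3) a mean per strain and furfural level was fitted to all 13 arrays, and p-values were adjusted by Benjamini-Hochberg within each of 8 comparisons. The procedure was tested on simulated data. Tables and figures used Python 3.11.15, pandas 2.3.3 and matplotlib 3.10.9.

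The genes and lists were chosen with earlier results of these data known. Genes named are the 33, at most 4 called genes with the smallest p per other list, and YPL038W-A. No arrays held identical values. The 22 alternatives covered centring, quantile normalization, a pseudocount of 32, a filter on dim probe sets, the variance model, weights per array, fits to only the groups compared, a replicate block and leaving out each of 13 arrays. Chromosomes come from the gene annotation. Coordinates are left out, since the build is unknown here. SOA1 was not analysed here.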

Additional observations from a re-analysis of the deposited data

Results flagged for a closer look

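YPL038W-A, whose systematic name places it beside MET31 on chromosome XVI, differed in its response to furfural between the strains: the strain by dose interaction was 3.56 ± 0.12 (limma, adjusted p = 5.39e-08), the change at 25 against 15 mM in FT30-3 minus that in TMB3400. It read 10.79 and 10.82 in FT30-3 at 25 mM, against 11.03, 10.85 and 10.91 at 15 mM, and 6.88, 6.79 and 6.76 in TMB3400 at 25 mM, against 10.42 and 10.57 at 15 mM. The 3 TMB3400 arrays at 25 mM thus stand apart from the other 10. MET31 did not share this pattern, with a change of 0.01 ± 0.21 at 25 against 15 mM in TMB3400. Of the 33 genes, 0 passed the interaction test. YPL038W-A is outside the 33 and was named because an earlier account of these same data gave it a large value. Its p and the separation of its arrays are therefore no independent support.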

How the results depend on the processing

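The 20 calls of single genes among the 33 were rerun under 22 alternatives, 440 runs in all: 304 passed the threshold in the same direction, 136 no longer passed and 0 turned direction. Runs that left out an array outside the groups compared could not turn direction, since only the estimate of spread moved. The number of the 33 genes called moved as follows. For the strains at 15 mM, 0 became 1 with centring off chromosome XVI and 3 with array weights, and 0 to 2 when single arrays were left out. For the strains at 25 mM, 1 became 0 with centring off chromosome XVI, with array weights and with the replicate block, and 0 to 4 without single arrays, the 4 with replicate 1 of FT30-3 at 36 mM left out. It was 0 for 9 arrays: replicate 1 of TMB3400 at 15 mM and of both strains at 25 mM, replicate 2 of TMB3400 at both levels and of FT30-3 at 25 and 36 mM, and replicate 3 of FT30-3 at 15 and 36 mM. For the averaged strain comparison, 5 became 2 with centring off chromosome XVI and 0 to 8 without single arrays. It was 0 to 3 without any single array but TMB3400 at 25 mM replicate 3 and FT30-3 at 36 mM replicates 1 and 3. At 36 against 15 mM, 8 became 18 with array weights, when 47.7% of all genes were called, 5 with only the groups compared, and 4 to 11 without single arrays. At 36 against 25 mM, 6 became 3 with array weights, 0 with only the groups compared, 3 with the replicate block and 0 to 5 without single arrays. The cause was not tested, except that fitting only the groups compared leaves fewer arrays to estimate the spread. The counts at 25 against 15 mM in each strain and for the interaction were 0 in every alternative.

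No label ties the replicate numbers to a shared culture or day, and they were not taken to pair the samples. In the comparison with 3 pairs, 36 against 15 mM, the deviations of arrays with the same number correlated by -0.32, -0.33 and 0.06. With 2 pairs each, the correlations were 0.35 and 0.34 at 36 against 25 mM, and 0.35 and 0.24 between strains at 25 mM. They were 0.57 and 0.36 at 25 against 15 mM in TMB3400, and -0.14 and -0.37 in FT30-3. Between strains at 15 mM they were -0.39 and -0.30. In each of these comparisons 1 group holds 2 arrays, whose deviations from their mean mirror each other. The 2 correlations are therefore tied, and their shared sign cannot show whether the samples were paired. With groups of 2 or 3 arrays, the 95% intervals at 36 against 15 mM were narrowest for MET6 (-0.37 to -0.05) and widest for SUL1 (-4.10 to -2.18), and the sizes that could be resolved differ accordingly.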
